A study of Mus musculus with 8 samples.

Results

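Loss of the RNA methyltransferase Nsun2 was examined in mouse embryonic fibroblasts (MEFs) by setting the array of Nsun2-/- MEFs against the array of wild-type MEFs. All genes with a detection p-value under 0.01 on at least 1 of these 2 arrays were kept, which gave 9677 of the 16559 genes on the bead array. Of these, 8379 were detected on both arrays, 686 only in Nsun2-/- MEFs and 612 only in wild-type MEFs. The series measured total RNA on Illumina MouseRef-8 v2 bead arrays, with 1 array for each of 8 groups. The groups were Nsun2-/-, double knockout (DKO), Dnmt2-/- and wild type, each as MEFs and as livers of mice aged 2 months. The MEFs came from embryos at day 13.5, were immortalised by SV40 large T antigen from a transfected plasmid, and were used at passage 9. All groups carry the same strain label, CBA/C57BL6j x B6;129, which is a mixed background. The sources used here do not say whether a MEF line came from 1 embryo, from pooled embryos or from 1 clone. With 1 array a side, no difference between Nsun2-/- and wild-type MEFs has a replicate check, and genotype, cell line and strain background cannot be told apart.

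Nsun2 transfers a methyl group to the carbon-5 position of cytosines in many transfer RNAs (tRNAs), mostly where the variable loop meets the T stem, and in some other RNAs. The methyl group is known to protect tRNAs from cleavage by the nuclease angiogenin. Dnmt2, encoded by Trdmt1, methylates a cytosine in the anticodon loop of a few tRNAs. Levels are given as log2 signal, which is the background-corrected, quantile-normalised intensity of a gene's brightest probe on the log2 scale. Differences are log2 differences, Nsun2-/- minus wild type, and a gene was counted at a difference of 2-fold or more. If one side was undetected, the fold is a bound and is given as "at least". The DKO minus Dnmt2-/- pair of MEF arrays also differs by Nsun2 and shares no array with the first pair, so its values are set beside many of the results.

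The labels were checked first. Nsun2 had a log2 signal of 4.33 (not detected) in Nsun2-/- MEFs, against 5.36 in wild-type MEFs, and 4.22 (not detected) in DKO MEFs, against 5.14 in Dnmt2-/- MEFs. Both arrays with a functional gene lay above both without, and the Nsun2 probe was at least 1.95-fold lower in Nsun2-/- than in wild-type MEFs. Its wild-type signal was dim, so this bound is set by the detection floor. Trdmt1 was not detected in either array of the pair, at 4.40 in Nsun2-/- and 4.51 in wild-type MEFs. Fibroblast markers were present on both arrays, with 13 of the 14 on the array detected in Nsun2-/- MEFs, at a median of 9.47, and 13 in wild-type MEFs, at a median of 9.64. Of 7 myeloid markers only Cd14 was detected on either array, and of 5 hepatocyte markers none was. In the pair of DKO and Dnmt2-/- MEFs, 12 fibroblast markers were detected in DKO MEFs, at a median of 8.63. In Dnmt2-/- MEFs 13 were detected, at a median of 10.41. The X-inactivation transcript Xist and 2 Y-linked genes, Eif2s3y and Kdm5d, divided the arrays by Nsun2 genotype, while the Y-linked gene Uty did not. Eif2s3y, a Y-linked subunit of the translation factor eIF2, had 4.09 (not detected) in Nsun2-/- MEFs, against 7.85 in wild-type MEFs, and 4.10 (not detected) in DKO MEFs, against 6.78 in Dnmt2-/- MEFs. Xist had 5.90 in Nsun2-/- MEFs, against 4.47 (not detected) in wild-type MEFs, and 6.07 in DKO MEFs, against 4.58 in Dnmt2-/- MEFs. Kdm5d was not detected in Nsun2-/- or DKO MEFs and had 5.95 in wild-type and 5.70 in Dnmt2-/- MEFs. Uty was detected, dimly, on all 4 MEF arrays, with 4.93 in Nsun2-/-, 4.97 in wild-type, 5.37 in DKO and 4.91 in Dnmt2-/- MEFs. Levels of Xist, Eif2s3y and Kdm5d thus moved with genotype in both pairs, their part in the results below was not tested, and embryo sex and Nsun2 genotype cannot be told apart by these arrays.

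Most genes had similar signals on the 2 arrays. The log2 intensities correlated across probes at r = 0.989, the median difference of all 9677 genes was −0.04, and 89.5% of genes lay within 1.5-fold. By any amount, 44.7% of genes were higher and 54.7% lower in Nsun2-/- MEFs. At 2-fold or more, 254 genes (2.62%) differed, of which 188 (1.94%) were higher and 66 (0.682%) were lower in Nsun2-/- than in wild-type MEFs. Higher genes thus made up 74.0% of those past 2-fold, and 61.0% when arrays were scaled to the same median in place of quantile normalisation, which moved the median of all genes to −0.13. At 4-fold or more, 32 genes were higher and 8 lower, and at 8-fold or more, 5 were higher and 2 lower. Bounds account for 17 of the 188 higher and 11 of the 66 lower genes. Past 2-fold were 19 of the 2419 dimmest genes (0.785%) and 65 of the 2420 brightest (2.69%). The dimmest genes lie near the detection floor of 4.40, which leaves them little room to reach 2-fold. These shares therefore cannot show whether dim probes affect the count. The threshold cuts through a continuous range. On the higher side the 5 genes just inside it lay between 2.00-fold (Pros1) and 2.02-fold (Fbln1), and the 5 just outside between 1.97-fold (Fst) and 2.00-fold (Tmem254a). On the lower side they lay between 2.00-fold (Slc12a2) and 2.04-fold (Mest) inside, and between 1.96-fold (Cck, a bound) and 1.98-fold (Adck1) outside.

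The largest differences on the higher side included genes of immune defence, secreted matrix proteins and cell surface proteins. Gbp2b, an interferon-inducible guanylate-binding protein, had 8.86 in Nsun2-/- MEFs, against 4.17 (not detected) in wild-type MEFs, which is at least 22-fold. It was detected in no other MEF array, with 4.41 in DKO and 4.22 in Dnmt2-/- MEFs. Plac8 had 11.63 in Nsun2-/- and 8.12 in wild-type MEFs (11.4-fold), and Prelp, a proteoglycan that anchors basement membranes to connective tissue, had 9.99 and 6.59 in the same order (10.5-fold). Lcn2, which binds bacterial iron carriers, had 13.18 in Nsun2-/- and 9.96 in wild-type MEFs (9.31-fold). Aqp1, a water channel, had 10.84 in Nsun2-/- and 7.66 in wild-type MEFs (9.09-fold). These 5 genes differed by more than 8-fold and, apart from Gbp2b, were clearly detected on both arrays.

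The next genes in order were Serping1, the inhibitor of the first complement component (7.79-fold), H2-Ab1, an MHC class II chain (7.58-fold), and Meox2, a homeobox transcription factor of mesoderm (at least 7.13-fold). They were followed by the matrix-degrading enzyme Mmp3 (6.63-fold), Actg2, an actin of smooth muscle (6.10-fold), Agtr1a, a receptor for angiotensin (6.06-fold), and Errfi1, a feedback inhibitor of the EGF receptor (5.88-fold). Foxq1, a forkhead transcription factor (5.44-fold), the matrix-degrading enzyme Mmp10 (at least 5.08-fold) and Tmem51 (4.75-fold) completed the 15 largest. Of 7 smooth muscle markers, 5 were detected on each array, of which 2 were higher and 3 lower, and Actg2 was the member past 2-fold. Their median signal was 5.14 in Nsun2-/- and 4.91 in wild-type MEFs. The log2 summed signal was 14.02 in Nsun2-/- and 14.34 in wild-type MEFs, of which Acta2 alone had 13.89 and 14.30.

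On the lower side, Eif2s3y (at least 11-fold) was followed by Igfbp5, a secreted binder of insulin-like growth factors. Igfbp5 had 5.86 in Nsun2-/- and 9.10 in wild-type MEFs (9.47-fold). Bcl11b, a zinc-finger transcription factor, had 4.33 (not detected) in Nsun2-/- and 7.30 in wild-type MEFs (at least 7.48-fold). Trim59, a membrane-bound ubiquitin ligase, had 4.53 (not detected) in Nsun2-/- MEFs, against 7.10 in wild-type, 6.98 in DKO and 6.77 in Dnmt2-/- MEFs (at least 5.95-fold). Trim59 was thus low on the Nsun2-/- array only among the 4 MEF arrays. Ifi202b, an interferon-activated gene (at least 4.97-fold), the cationic amino acid transporter Slc7a3 (4.92-fold), the vasopressin receptor Avpr1a (4.64-fold) and the transcription factor Gata6 (4.31-fold) came next. The pluripotency-associated gene Dppa5a was lower by at least 3.87-fold at the brightest probe, but its other 2 probes, 1 of them detected, differed in the opposite direction, by 0.34 and 0.08 on the log2 scale.

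**Figure D1:**
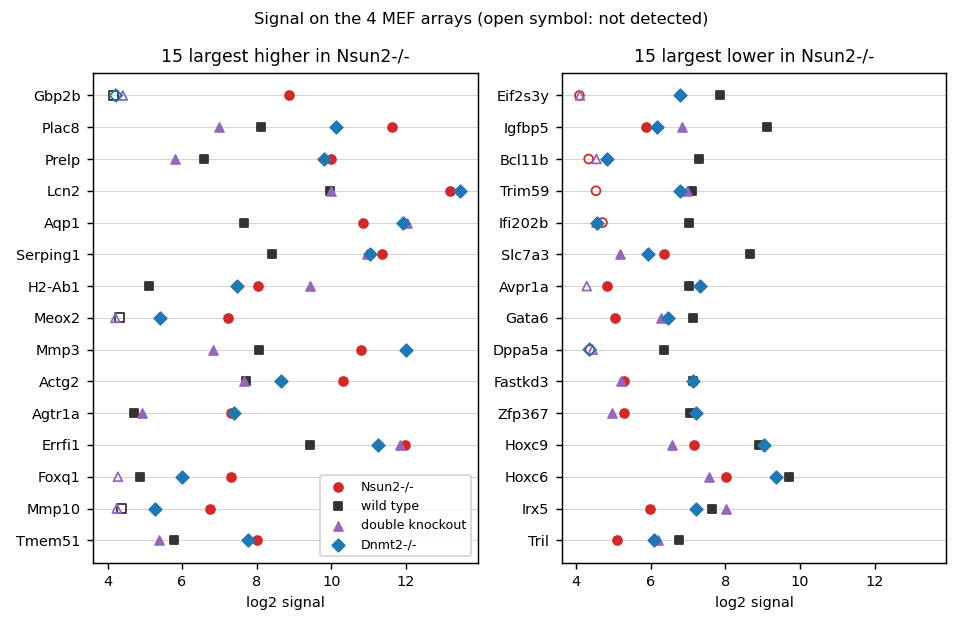
Log2 signal on the 4 MEF arrays for the 15 genes with the largest positive and the 15 with the largest negative difference, Nsun2-/- minus wild type; open symbols were not detected. Gbp2b stands out on the Nsun2-/- array alone, while for Igfbp5, Bcl11b, Slc7a3 and Aqp1 the wild-type array stands apart from the other 3.

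MHC class I genes and the immunoproteasome were higher in Nsun2-/- MEFs. MHC class I molecules carry peptides made by the proteasome to the cell surface, and interferon raises both the molecules and the peptide-making subunits. Of 17 detected members, 16 were higher and 1 was lower, 6 were 2-fold or more higher and none 2-fold lower, with a median difference of 0.82 against −0.04 for all genes. H2-Q8 had 9.27 in Nsun2-/- and 7.27 in wild-type MEFs (4.01-fold). H2-K1, a classical class I heavy chain, had 7.25 in Nsun2-/- and 5.88 in wild-type MEFs (2.58-fold). Psmb9, a catalytic subunit of the immunoproteasome, had 10.13 in Nsun2-/- and 8.94 in wild-type MEFs (2.29-fold). H2-Q7 (2.75-fold), H2-T23 (2.52-fold) and the classical heavy chain H2-D1 (2.26-fold) were the other members past 2-fold. Class I genes are close copies of each other, and how well their probes separate them was not tested. B2m, the shared light chain, was among the smaller differences, at 0.25. In DKO minus Dnmt2-/- MEFs the list had a median of 0.75, with 14 of 17 members higher, where 51.4% of all genes in that pair were higher, 48.1% were lower and the median was 0.02. The wild-type array was the lowest of the 4 MEF arrays for 16 of the 17 genes, against 19.8% of all 9677 genes, and Nsun2-/- was the highest for 0. Dnmt2-/- minus wild type, which shares the wild-type array, had a median of 1.16. Fewer cells making a transcript and less transcript per cell cannot be told apart in these bulk samples.

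Other immune genes were less uniform. Of 5 detected MHC class II genes, 4 were higher, and H2-Ab1 was the member past 2-fold, with 8.04 in Nsun2-/- and 5.11 in wild-type MEFs, and 9.42 in DKO and 7.48 in Dnmt2-/- MEFs. Of 35 detected interferon-stimulated antiviral genes, 23 were higher and 12 lower, with a median of 0.17, and 2 were past 2-fold higher and 1 lower. Ifitm1, which restricts virus entry, was 4.74-fold higher, the RNA sensor Oas2 was 2.41-fold higher, and Ifi27 was 2.24-fold lower. Of 10 detected interferon-inducible GTPases, 9 were higher and 1 lower, at a median of 0.17, and only Gbp2b was past 2-fold. In DKO minus Dnmt2-/- MEFs the GTPases had a median of 0.54, with 2 of 8 past 2-fold higher and 0 lower. Among 24 chemokines and cytokines, 5 were 2-fold or more higher and none lower, at a median of 0.34. Ccl5, which attracts T cells, had 12.23 in Nsun2-/- and 10.37 in wild-type MEFs (3.61-fold). Cxcl14 (3.50-fold), Ccl9 (2.51-fold), the monocyte attractant Ccl2 (2.38-fold) and the interferon-inducible Cxcl10 (2.06-fold) were the others. Of 19 genes of the NF-kB pathway and its targets, 15 were higher, with a median of 0.43. The adhesion molecule Icam1 (3.85-fold) and the mitochondrial superoxide dismutase Sod2 (2.24-fold) were past 2-fold there, with Lcn2 and Saa3. The medians in DKO minus Dnmt2-/- MEFs were 0.13 for the antiviral genes, −0.18 for the chemokines and cytokines and −0.11 for the NF-kB list. Past 2-fold in that pair, 1 antiviral gene was higher and 2 lower, 5 chemokines and cytokines were higher and 9 lower, and 0 NF-kB genes were higher and 3 lower. Ifitm1 differed there by −1.26, Cxcl14 by −2.36 and Icam1 by −0.30, while Ccl9 was higher in both pairs, at 1.18 in DKO minus Dnmt2-/- MEFs. Dnmt2-/- minus wild type, which shares the wild-type array, had medians of 0.65 for the antiviral genes and 0.92 for the GTPases. Its medians were 0.64 for the chemokines and cytokines and 0.48 for the NF-kB list. The wild-type array was the lowest of the 4 MEF arrays for 21 of the 35 antiviral genes and 9 of the 10 GTPases.

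Acute-phase and complement genes had the highest median of the lists with at least 10 detected members. The list holds secreted proteins whose synthesis rises in inflammation, some of which bind or opsonise microbes, and inhibitors of complement. Of 14 detected members, 11 were higher and 3 lower, 8 were 2-fold or more higher and none 2-fold lower, at a median of 1.16. Dnmt2-/- minus wild type, which shares the wild-type array, had a median of 1.01 for this list. Serping1 had 11.36 in Nsun2-/- and 8.40 in wild-type MEFs. Saa3, a serum amyloid protein, had 13.69 in Nsun2-/- and 11.67 in wild-type MEFs (4.05-fold). Cd59a, a membrane inhibitor of complement lysis, had 8.59 in Nsun2-/- and 6.90 in wild-type MEFs (3.22-fold), and Orm1 was at least 2.82-fold higher. In DKO minus Dnmt2-/- MEFs the same list had a median of −1.51, with 12 of 14 detected members lower and 8 of them 2-fold or more. Lcn2 had 9.98 in DKO and 13.45 in Dnmt2-/- MEFs, and Saa3 had 8.83 and 12.68 in the same order. Cd14, the sole detected myeloid marker, had 8.25 in Nsun2-/- and 6.62 in wild-type MEFs, and 6.47 in DKO and 7.59 in Dnmt2-/- MEFs, and the log2 summed signal of the 7 myeloid markers was 8.74 in Nsun2-/- and 7.75 in wild-type MEFs. Its part in the list was not tested, and the other 6 markers were undetected on both arrays of the pair. The 2 pairs thus differed in direction for this list, while Cd59a was higher in DKO MEFs too, at 8.93 against 6.85 in Dnmt2-/- MEFs.

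Because members of the interferon-related and ATF4-related lists were among the largest differences, the 250 bases before each gene's start were searched on both strands in RefSeq promoters (build GRCm38.p6). The interferon response element was searched as GAAA, any 2 bases and GAAA again, the ATF4 response element as TGATGNAA, and an NF-kB site as GGG, any 2 bases and TTTCC. The interferon element occurred in 11 of the 135 2-fold higher genes with a promoter (8.15%) and in 2.79% of all detected genes with one, against 3.04% of 27025 promoters. It was in 0 of 44 lower genes. The NF-kB site occurred in 3 of the 135 higher genes (2.22%), in 1 of the 44 lower genes (2.27%), in 1.37% of detected genes and in 1.40% of all promoters. The promoters of 3 higher genes that hold the interferon element are shown, with its match in capitals, 5′ to 3′ on the gene's strand. They are Gbp2b (chr3:142594597-142594846, plus strand), H2-T23 (chr17:36032702-36032951, minus strand) and Cxcl10 (chr5:92348890-92349139, minus strand).
Gbp2b: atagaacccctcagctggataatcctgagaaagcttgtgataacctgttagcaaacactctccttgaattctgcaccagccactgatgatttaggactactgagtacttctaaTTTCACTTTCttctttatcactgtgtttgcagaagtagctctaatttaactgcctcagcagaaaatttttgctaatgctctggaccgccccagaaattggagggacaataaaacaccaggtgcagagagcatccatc
H2-T23: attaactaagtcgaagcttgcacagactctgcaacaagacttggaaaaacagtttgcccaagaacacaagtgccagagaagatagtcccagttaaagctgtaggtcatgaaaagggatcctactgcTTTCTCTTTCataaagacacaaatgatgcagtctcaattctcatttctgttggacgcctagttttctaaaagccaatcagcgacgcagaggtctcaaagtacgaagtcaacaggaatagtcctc
Cxcl10: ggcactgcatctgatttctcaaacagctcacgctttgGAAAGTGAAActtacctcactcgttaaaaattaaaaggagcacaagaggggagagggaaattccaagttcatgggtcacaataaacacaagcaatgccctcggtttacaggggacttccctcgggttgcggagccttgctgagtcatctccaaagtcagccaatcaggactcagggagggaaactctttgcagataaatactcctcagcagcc
The match is described only as letters in the reference sequence, since strain differences and protein binding were not measured.

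ATF4 targets were lower in Nsun2-/- MEFs. ATF4 is the transcription factor of the integrated stress response and of amino acid shortage, and its targets import amino acids, make serine and asparagine, and charge tRNAs. Of 35 detected targets, 26 were lower and 9 higher, with 9 past 2-fold lower and 1 past 2-fold higher, at a median of −0.54 against −0.04 for all genes. Slc7a3 had 6.36 in Nsun2-/- and 8.66 in wild-type MEFs. Chac1, a glutathione-degrading enzyme, had 8.47 in Nsun2-/- and 10.03 in wild-type MEFs (2.95-fold lower). Atf5, a related transcription factor, had 9.62 in Nsun2-/- and 11.08 in wild-type MEFs (2.75-fold lower). The mitochondrial folate enzymes Aldh1l2 (2.87-fold) and Mthfd2 (2.45-fold), the transaminases Gpt2 (2.38-fold) and Bcat1 (2.23-fold), and the transporters Slc1a4 (2.32-fold) and Slc6a9 (2.07-fold) were the others past 2-fold. Stc2, a secreted glycoprotein, was 2.79-fold higher. Atf4 itself differed by −0.09, and asparagine synthetase, Asns, had 11.48 in Nsun2-/- and 12.17 in wild-type MEFs.

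For these genes the wild-type array was the one that stood apart. It was the highest of the 4 MEF arrays for 22 of the 35 targets, against 30.0% of all genes, while Nsun2-/- was the lowest for 8. Chac1 had 8.31 in DKO and 8.70 in Dnmt2-/- MEFs, and Atf5 had 10.13 and 10.05 in the same order, all below the wild-type values. In DKO minus Dnmt2-/- MEFs the list's median was −0.04, with 16 of 37 detected targets higher and 21 lower, 2 of them past 2-fold. Aldh1l2 was lower in both pairs, with 7.50 in DKO and 8.91 in Dnmt2-/- MEFs. Dnmt2-/- minus wild type, which shares the wild-type array, had a median of −0.44. The ATF4 element occurred in 7 of 30 detected targets with a promoter (23.3%), against 2.23% of detected genes and 3.53% of all promoters. Over all genes past 2-fold with a promoter, it was in 6 of 135 higher genes (4.44%) and in 1 of 44 lower genes (2.27%). Among the 7 targets past 2-fold lower that have a promoter it was in 1, Chac1 (chr2:119350992-119351241, plus strand), shown with the match, on the reverse strand, in capitals.
Chac1: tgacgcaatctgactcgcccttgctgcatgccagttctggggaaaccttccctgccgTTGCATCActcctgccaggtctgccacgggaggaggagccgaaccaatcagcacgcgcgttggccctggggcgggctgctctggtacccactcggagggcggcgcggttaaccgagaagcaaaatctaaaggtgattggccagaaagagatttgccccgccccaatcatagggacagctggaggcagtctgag

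**Figure D2:**
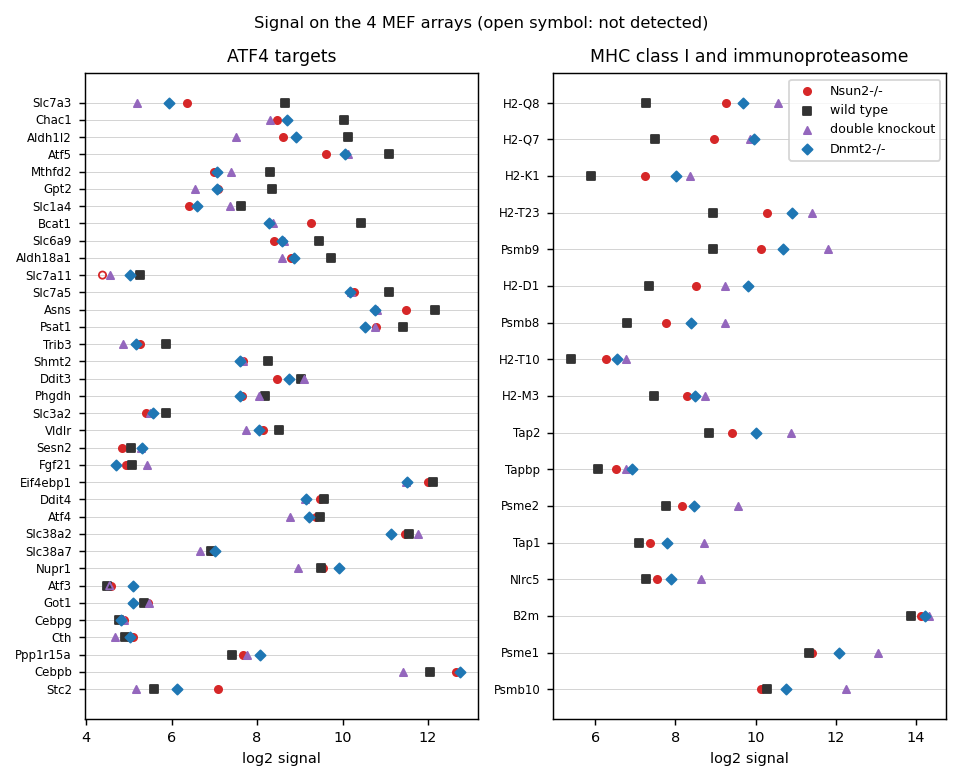
Log2 signal on the 4 MEF arrays for the 35 detected ATF4 targets and the 17 detected MHC class I and immunoproteasome genes, ordered by the difference Nsun2-/- minus wild type; open symbols were not detected. The wild-type squares lie to the right for most targets in the upper part of the left panel and are the lowest values for 16 of 17 genes in the right panel.

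In the lists of genes that act on tRNAs, 0 detected members were past 2-fold, where 2.62% of all detected genes were. For lists of this size a count of 0 lies near that share, and Nsun2 itself had a bound of 1.95-fold. The cytosolic aminoacyl-tRNA synthetases join each amino acid to its tRNA. Of 22 detected, 17 were lower and 5 higher, with a median of −0.23 and none past 2-fold. Sars had 8.76 in Nsun2-/- and 9.74 in wild-type MEFs (1.98-fold lower), and Lars, Nars and Wars were 1.85-fold, 1.83-fold and 1.77-fold lower. In DKO minus Dnmt2-/- MEFs the synthetases had a median of 0.11. The 12 detected mitochondrial synthetases had a median of 0.08. Among 42 other tRNA modification enzymes 28 were lower and 14 higher, at a median of −0.15, and none was past 2-fold. The list of 22 genes for tRNA cleavage and processing had a median of −0.08 and none past 2-fold, and ribosome biogenesis genes had a median of −0.16, with 28 of 37 lower. The 53 detected cytosolic ribosomal proteins lay at −0.02, and Rplp0, the stalk protein, was the lowest at −0.82. Of all genes, 54.7% were lower. Dnmt2-/- minus wild type had medians of −0.43 for the cytosolic synthetases, −0.31 for the modification enzymes and −0.41 for ribosome biogenesis. The wild-type array was the highest of the 4 MEF arrays for 14 of 22 synthetases and 24 of 37 ribosome biogenesis genes, against 30.0% of all genes. Nsun2-/- was the lowest for 6 and 2 of them, against 22.2% of all genes.

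Immediate-early genes and glycolysis and hypoxia targets were mostly higher. Immediate-early genes, which respond to growth factors within minutes, had 20 of 26 members higher, 5 past 2-fold higher, none 2-fold lower, and a median of 0.45. Errfi1 had 11.98 in Nsun2-/- and 9.42 in wild-type MEFs. The MAP kinase phosphatases Dusp6 (2.46-fold) and Dusp1 (2.14-fold), the cytokine-signalling inhibitor Socs3 (2.19-fold) and Ier3 (2.11-fold) were also past 2-fold. Among glycolysis and hypoxia targets 23 of 29 were higher, 5 past 2-fold and none 2-fold lower, with a median of 0.28. Aldoc, an aldolase, had 7.84 in Nsun2-/- and 5.77 in wild-type MEFs (4.21-fold). Adm, which encodes the vasodilator peptide adrenomedullin (3.54-fold), the phosphofructokinase Pfkp (3.16-fold), the glucose transporter Slc2a3 (2.67-fold) and Ndrg1 (2.46-fold) were the others. For this list Nsun2-/- was the highest of the 4 MEF arrays in 18 of 29 genes, against 22.1% of all genes. The antioxidant enzymes Sod3 (4.10-fold) and Mgst1 (3.37-fold) were higher as well, although the 28 NRF2 and glutathione genes had a median of 0.07, which became −0.05 under median scaling. In Dnmt2-/- minus wild-type MEFs the immediate-early and glycolysis lists had medians of 0.33 and 0.20. In DKO minus Dnmt2-/- MEFs the immediate-early and glycolysis lists had medians of −0.05 and −0.08, and the NRF2 and glutathione list 0.15. In that pair Adm (−2.83), Sod3 (−1.62), Mgst1 (−1.63) and Dusp1 (−1.17) were past 2-fold lower, and Aldoc (1.03) was past 2-fold higher.

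Matrix genes were higher in some families only. Small leucine-rich proteoglycans, which bind collagen fibrils and space them, had 5 of 7 members higher, 3 past 2-fold higher and 1 past 2-fold lower, with a median of 0.96. Their median in Dnmt2-/- minus wild-type MEFs was 0.85. Lum had 8.41 in Nsun2-/- and 6.38 in wild-type MEFs (4.09-fold), and Dcn had 13.16 and 12.06 in the same order (2.14-fold). Ogn was the exception, with 7.71 in Nsun2-/- and 9.36 in wild-type MEFs (3.14-fold lower). Prelp, Lum and Dcn were past 2-fold in the opposite direction in DKO minus Dnmt2-/- MEFs, while Ogn (−0.24) was lower in both pairs, as was Bgn (−0.25 in Nsun2-/- minus wild-type and −0.77 in DKO minus Dnmt2-/- MEFs). Lum had 4.13 (not detected) in DKO and 9.67 in Dnmt2-/- MEFs, Dcn had 9.55 and 13.31 in the same order, and the list's median was −2.01 with all 8 detected members lower. Matrix-degrading enzymes past 2-fold were Mmp3, Mmp10 and Mmp13 (4.34-fold), while the median of 19 members was 0.05, and −0.05 under median scaling. Other detected probes of Mmp13 differed by 0.13 and 0.80 on the log2 scale, both under 2-fold. The 43 detected collagens and structural matrix genes had a median of 0.03, and −0.05 under median scaling. Of them the fibulin Fbln1 was 2.02-fold higher, and Mfap4 (2.35-fold) and the basement membrane chain Col4a5 (2.12-fold) were lower. The metalloproteinase list had a median of −0.63 in DKO minus Dnmt2-/- MEFs, with Mmp13 at −1.49, and the collagen list had a median of −0.45. The growth factor Igf2 (2.56-fold) and the carrier Igfbp3 (2.09-fold) were higher, in contrast to Igfbp5, and differed by −0.69 and −3.20 in DKO minus Dnmt2-/- MEFs.

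Transcription factors of development differed in both directions. Of 46 detected members 21 were higher and 25 lower, with 5 past 2-fold higher and 7 past 2-fold lower. Meox2 had 7.23 in Nsun2-/- and 4.32 (not detected) in wild-type MEFs, and Foxq1 had 7.31 and 4.86 in the same order. Lhx8 (3.43-fold), Foxf1 (2.45-fold) and Gsc (2.08-fold) were also higher. Bcl11b, Gata6, Irx5 (3.17-fold), Sox5 (2.65-fold) and Isl1 (2.64-fold), a LIM-homeobox factor, were lower. Of 25 detected Hox genes, which mark position along the body axes, 2 members of the HoxC cluster were past 2-fold lower. Hoxc9 had 7.15 in Nsun2-/- and 8.90 in wild-type MEFs (3.37-fold lower), and Hoxc6 had 8.0 in Nsun2-/- and 9.69 in wild-type MEFs (3.23-fold lower). Hoxd13, the last gene of the HoxD cluster, was at least 2.04-fold higher. All 23 Hox genes detected in the DKO and Dnmt2-/- pair were lower in DKO MEFs, 9 past 2-fold, at a median of −0.70. Of the Id inhibitors of helix-loop-helix factors, targets of BMP signalling, Id2 (2.48-fold) and Id1 (2.35-fold) were past 2-fold lower. Id3 differed by −0.78 and Id4 by 0.33.

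Lists for growth and housekeeping stayed near the median of all genes. Of 45 detected cell cycle and DNA replication genes 26 were lower and 19 higher, at a median of −0.10 with none past 2-fold. The largest was the cyclin Ccnd1, which had 11.01 in Nsun2-/- and 10.17 in wild-type MEFs, and 12.28 in DKO and 10.87 in Dnmt2-/- MEFs. Targets of p53 had a median of −0.13, with the death receptor Fas (2.16-fold) and Gadd45a (2.11-fold) past 2-fold higher among 29 members, while Fas was at −0.60 and Gadd45a at −1.15 in DKO minus Dnmt2-/- MEFs. Cholesterol and fatty acid synthesis genes had a median of −0.14 and none of 30 past 2-fold. Of 66 detected mitochondrial ribosomal proteins 46 were lower, at a median of −0.09, yet Mrpl27 had 9.08 in Nsun2-/- and 7.31 in wild-type MEFs (3.40-fold higher). Translation factors had a median of −0.10 and none of 37 past 2-fold.

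Other signalling and identity genes differed singly. Of 46 detected genes of BMP, TGF-beta and Wnt signalling, 3 were past 2-fold higher, namely the ligand Wnt6 (2.34-fold), the matrix protein Tgfbi (2.13-fold) and Nkd2, an inhibitor of Wnt signalling (2.09-fold). The 2 members past 2-fold lower were Id1 and Id2, and the list's median was 0.11, against −0.23 in DKO minus Dnmt2-/- MEFs. Wnt6 had 6.29 in Nsun2-/- and 5.07 in wild-type MEFs, and 8.26 in DKO and 6.11 in Dnmt2-/- MEFs. Of 18 detected imprinted growth genes, Igf2 and Dcn were past 2-fold higher and Mest was 2.04-fold lower, with 6.55 in Nsun2-/- and 7.58 in wild-type MEFs. Among 28 receptors for growth factors and other ligands, Agtr1a had 7.31 in Nsun2-/- and 4.71 in wild-type MEFs, and Avpr1a was the member past 2-fold lower. Markers of other lineages differed in both directions. The neural markers Gap43 (2.17-fold) and Nes (2.15-fold) were higher and Map2 (2.93-fold) was lower, and Sox9, a chondrocyte factor, was 2.30-fold lower with 5.0 in Nsun2-/- and 6.20 in wild-type MEFs.

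**Figure D3:**
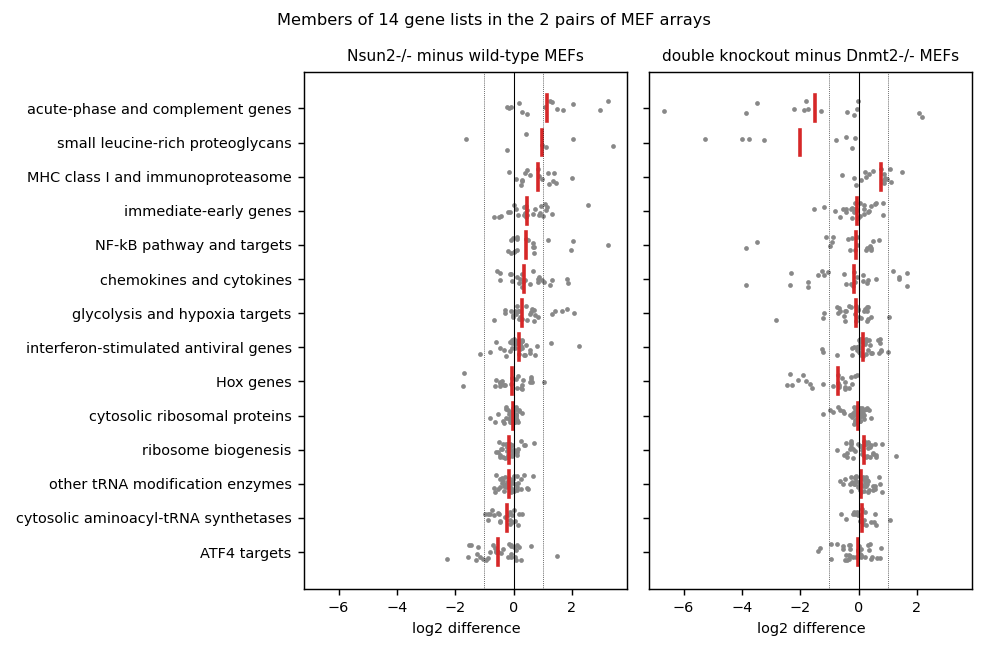
Log2 difference of the detected members (points) of 14 gene lists, with the median of each list as a red bar, for Nsun2-/- minus wild-type MEFs (left) and DKO minus Dnmt2-/- MEFs (right); dotted lines mark 2-fold. MHC class I genes lie to the right of 0 in both panels, at medians of 0.82 and 0.75, while acute-phase genes and small leucine-rich proteoglycans lie to the right in the left panel and to the left in the right panel.

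The same genes were then read in DKO minus Dnmt2-/- MEFs, the contrast that shares no array. The DKO array correlated with each other MEF array at r = 0.978 to 0.979, against 0.986 to 0.989 among those. Of 13 fibroblast markers detected in this pair, 12 were lower and 1 higher in DKO MEFs, 6 past 2-fold lower, at a median of −0.92. Loss of Nsun2 and other differences between the DKO and Dnmt2-/- lines cannot be told apart in this pair. Of the 188 higher genes, 187 were measured there, 19 were 2-fold or more higher (10.1%, against 2.61% of all genes in that pair) and 71 were 2-fold or more lower (37.8%, against 3.68%). The median of the higher genes in that pair was −0.50. The 19 shared genes make up 7.39% of the 257 genes past 2-fold higher in DKO minus Dnmt2-/- MEFs. Of the 66 lower genes, 63 were measured, 17 were 2-fold or more lower (25.8%) and 4 were 2-fold or more higher (6.06%), with a median of −0.17. The 17 make up 4.70% of the 362 genes past 2-fold lower in that pair. Across all 9677 genes the 2 differences correlated at r = −0.13, where genes are not independent replicates. The higher genes were thus past 2-fold in the opposite direction more often than in the same one, and the lower genes more often in the same one.

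Genes past 2-fold in the same direction in both pairs numbered 36. After Eif2s3y the leading ones were Avpr1a, H2-Ab1, Scara5, Fastkd3, Zfp367, Hoxc9, Hoxc6, Cd59a and Gdf10. Avpr1a had 4.82 in Nsun2-/- and 7.03 in wild-type MEFs, and 4.28 (not detected) in DKO and 7.31 in Dnmt2-/- MEFs. Fastkd3, a mitochondrial RNA-binding protein, had 5.28 in Nsun2-/- and 7.14 in wild-type MEFs, and 5.21 in DKO and 7.12 in Dnmt2-/- MEFs. Hoxc9 had 6.57 in DKO and 9.03 in Dnmt2-/- MEFs. For each of these 3 genes both arrays without Nsun2 lay below both arrays with it. Scara5, a scavenger receptor for ferritin, differed by 2.01 in Nsun2-/- minus wild-type and by 1.88 in DKO minus Dnmt2-/- MEFs, and Gdf10, a BMP-family ligand, by −1.59 and −1.90 in that order.

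**Figure D4:**
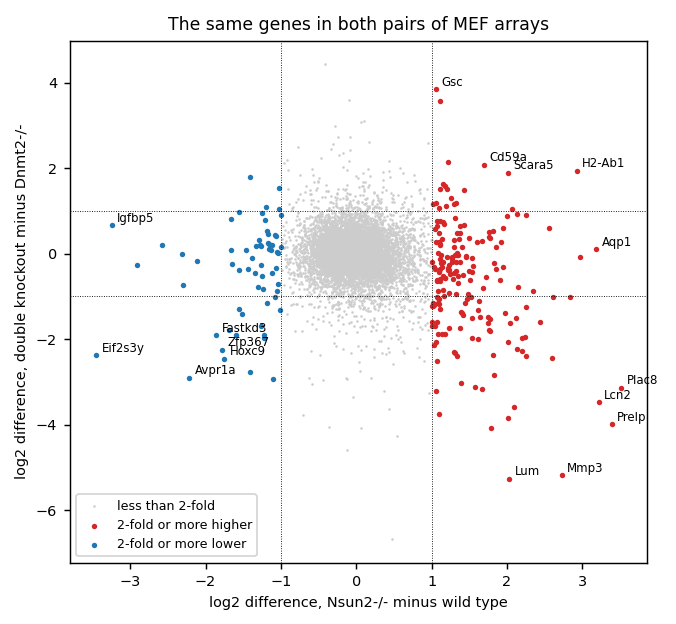
Log2 difference DKO minus Dnmt2-/- MEFs against log2 difference Nsun2-/- minus wild-type MEFs, each point a gene; red and blue points are 2-fold or more higher or lower in the second of these contrasts, and dotted lines mark 2-fold. The lower right holds 71 genes that were higher in Nsun2-/- and lower in DKO MEFs, among them Lum, Mmp3, Prelp, Lcn2 and Plac8.

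Both pairs were also fitted together over 10491 genes with limma, with Benjamini-Hochberg adjustment. The spread came from 2 residual degrees of freedom over all 8 arrays, which limma moderated with a prior of 3.10 degrees of freedom drawn from all genes. The residuals measure how far the 2 Nsun2 pairs of MEFs, and those of livers, differ from each other. They do not measure a spread of replicates, and a gene that differs between the pairs has a larger SE. No gene passed an adjusted p of 0.05 for Nsun2 loss in MEFs, and 515 genes (4.91%) had an unadjusted p under 0.05. The lowest adjusted p in limma was 0.351, shared by Eif2s3y (−3.22 ± 0.30, SE), Fastkd3 (−1.89 ± 0.17), Hoxc6 (−1.74 ± 0.17), Avpr1a (−2.62 ± 0.27), Zfp367 (−2.02 ± 0.21), Gdf10 (−1.84 ± 0.20) and Hoxc9 (−2.11 ± 0.23). Each of these was lower in 2 of 2 pairs. Cd59a (1.88 ± 0.22) and H2-Ab1 (2.43 ± 0.34), higher in 2 of 2 pairs, had limma adjusted p-values of 0.399 and 0.702. None of the differences above is therefore supported by a replicated test, and the sizes are those of these arrays.

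Few of these genes were past 2-fold in liver. Nsun2-/- minus wild-type livers had 126 genes (1.41%) past 2-fold higher and 133 (1.49%) lower. Of the 147 higher MEF genes measured there, 2 were past 2-fold higher and 2 past 2-fold lower, with a median of 0.03. Of the 40 lower MEF genes measured, 3 were past 2-fold lower and 3 higher. The genes that agreed in sign past 2-fold were Saa3, S100a8, Fastkd3, Zfp367 and Kdm5d, picked here after their values were seen. Saa3 differed by 2.62 in liver and 2.02 in MEFs, and Fastkd3 by −1.43 in liver, a bound, and −1.86 in MEFs. Eif2s3y, in contrast, was detected in every liver, with 8.76 in Nsun2-/- and 8.79 in wild-type livers. ATF4 targets had a median of 0.12 in liver, and MHC class I genes also 0.12. The difference between the MEF and the liver effect passed an adjusted p of 0.05 in limma for 0 genes, with 549 (5.23%) at an unadjusted p under 0.05 and a lowest adjusted p of 0.844.

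Nsun2 lies on chromosome 13, and 17 of the 340 detected genes of that chromosome (5.0%) were past 2-fold, against 2.62% of all genes. By order of genes on the array, Fastkd3 lies 3 places from Nsun2. On the same side follow Cdk20, Ctsl, Prxl2c and Zfp367, at 26, 27, 28 and 31 places, all past 2-fold. Cdk20 and Zfp367 were lower and Ctsl and Prxl2c higher, Prxl2c by 1.34, and by 0.01 in DKO minus Dnmt2-/- MEFs. The 17 genes, 9 higher and 8 lower, also include genes farther off on this side, such as Cxcl14, Agtr1a and Pfkp at 79, 248 and 436 places. On the other side Nkd2 and Glrx, at 14 and 29 places, were past 2-fold higher, by 1.07 and 1.39. They differed by −0.61 and −1.36 in DKO minus Dnmt2-/- MEFs. Zfp367, a zinc-finger protein, had 5.27 in Nsun2-/- and 7.05 in wild-type MEFs, and 4.97 in DKO and 7.22 in Dnmt2-/- MEFs, and it differed by −1.11 in liver. Its second probe differed by 0.36 in MEFs, and Cdk20 had 2 of 3 other probes with the opposite sign, so these 2 genes are uncertain. Ctsl, the lysosomal protease cathepsin L, was higher, by 1.75 in MEFs, 0.51 in DKO minus Dnmt2-/- MEFs and 0.81 in liver. Direct neighbours of Nsun2 differed less in Nsun2-/- minus wild-type MEFs. Tent4a, next to it on one side, had 8.51 in Nsun2-/- and 8.69 in wild-type MEFs, and Med10, next to it on the other, had 7.83 and 7.89 in the same order. In DKO minus Dnmt2-/- MEFs Tent4a differed by 0.20 and Med10 by −0.91. Irx1 and Irx2, homeobox genes 3 and 4 places away, differed by 0.47 and 0.49 in Nsun2-/- minus wild-type MEFs and by −1.98 and −2.59 in DKO minus Dnmt2-/- MEFs. Flanking strain DNA around the targeted gene and loss of Nsun2 cannot be told apart by this design.

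Other probes of the same genes gave a check within the arrays. Of the 254 genes, 76 had further probes, and of 95 detected further probes 86 had the same sign, 41 of them at 2-fold or more. The 9 with the opposite sign belonged to Abi3bp, Cdk20, Dppa5a, Heph, Mogat2, Pdxdc1 and Zfp367. Aqp1 was among the genes with matching probes, with 3.07 and 2.63 on the log2 scale at its other 2 probes and 3.19 at the brightest. Same-sign probes under 2-fold included those of Mmp13 (0.13 and 0.80), Nes (0.12), Id2 (−0.43) and Sox5 (−0.33), so the folds of these genes are uncertain. The 10 brightest genes of the Nsun2-/- array, among them the iron-storage protein Fth1 and the ribosomal protein Rpl38, differed by at most 0.15.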

How the data were processed

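Total RNA of 8 groups was measured on Illumina MouseRef-8 v2 bead arrays, with 1 array a group. Groups were taken from the labels. Biotin-labelled cRNA was made from Trizol extracts, per the labels' protocols. The deposited raw table gives a linear intensity and a detection p-value per probe and array, per the file headers. The authors also deposited processed intensity values; their normalization and the way the detection p-value was made are not given in the sources used here. On each array the authors' values kept the rank order of the first table and lay on the same linear scale with no centring of genes, at medians of 104 to 108.

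Background was corrected with limma 3.58.1 (R 4.3.3) by normexp from the detection p-values with an offset of 16, followed by log2 and quantile normalization of all 8 arrays. Of 25608 probes 23898 had 1 gene symbol, 0 had several and 1710 none. The brightest probe, by mean over the 8 arrays, stood for each of 16559 genes. Probes detected numbered 13221 in Nsun2-/- and 13019 in wild-type MEFs. An undetected value was raised to the array's lowest detected value where it lay below it. With 1 array a side no p-value was computed for that comparison, and precision is limited by the number of arrays. The limma fit took sample type, with loss of Dnmt2 and of Nsun2 nested in it, on genes detected on at least 2 arrays; the fit was tested on simulated data. In that fit undetected probes entered at their measured values.

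Named genes were the 15 largest in each direction, up to 4 a direction in each of 48 lists, neighbours of Nsun2, sex-linked genes, the leaders in both MEF pairs, the lowest p-values, the genes nearest the threshold, the brightest genes and genes with discordant probes. Further list members past 2-fold, and genes near Nsun2 other than its direct neighbours, were named after their values were seen. The members, lists and tests were chosen with earlier results of these data known. RefSeq tables (GRCm38.p6) gave chromosomes, gene order and promoters; the files' build is not given. Promoters were matched by symbol for 7875 of 9677 genes. Alternatives changed the background correction, normalization, offset, detection threshold, genes kept, probe choice and bounds.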

Additional observations from a re-analysis of the deposited data

Results flagged for a closer look

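Genes that were past 2-fold in opposite directions in both pairs of MEF arrays were picked out for a closer look. Of the genes higher in Nsun2-/- than wild-type MEFs, 71 were lower in DKO than Dnmt2-/- MEFs, and of the lower ones 4 were higher there. Between the MEF and the liver pair the same held for 2 of the higher genes, Ccng2 and Scara5, and for 3 of the lower genes, Hes1, Id1 and Them4. The 10 leading genes with opposite signs in the MEF pairs were all higher in Nsun2-/- MEFs, and the difference between the pairs was not tested, since each side has 1 array. In DKO minus Dnmt2-/- MEFs the log2 differences were −3.99 for Prelp, −3.48 for Lcn2, −3.14 for Plac8 and −5.19 for Mmp3. They were −2.45 for Agtr1a, −2.40 for Tmem51 and −2.28 for the growth factor Mdk. They were −2.22 for the transporter Slc10a6, −3.59 for Angptl7 and −5.27 for Lum. For comparison, Nsun2-/- minus wild-type MEFs gave Mdk 2.20, Slc10a6 2.13 and Angptl7 at least 2.09. All 10 were also higher in Dnmt2-/- than in wild-type MEFs, a contrast that shares the wild-type array with the first pair and the Dnmt2-/- array with the second, by 1.39 (Slc10a6) to 3.95 (Mmp3) on the log2 scale. Mdk had 8.40 in DKO MEFs and 10.67 in Dnmt2-/- MEFs, and 11.35 in Nsun2-/- MEFs and 9.15 in wild-type MEFs. In the limma contrast of MEF and liver effects, the adjusted p was 0.917 for Scara5 (2.43), Id1 (−1.42) and Hes1 (−1.30).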

How the results depend on the processing

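No paired analysis was possible because every group has 1 array and the label number 1 is shared by all. The count of genes past 2-fold depends on how background is handled. Without background correction 95 genes passed (78 higher, 17 lower), with the authors' processed values 94 (75 higher, 19 lower), and with an offset of 50 it was 143 (112 higher, 31 lower). Median scaling gave 122 lower genes and quantile normalization over the 4 MEF arrays 105. In each of the 9 settings run 0 genes were past 2-fold in the direction opposite to the reported one. The 109 named genes past 2-fold kept their direction in all 654 alternative values. The alternatives reprocess the same arrays, so direction had little room to change. Passing 2-fold did vary over 7 settings, the reported one included. Fbln1, Gadd45a and Igfbp3 passed in 2 and Dusp1, Fas, Id2 and Mest in 3. Xist, Kdm5d and Zfp367 passed in 4, while others, such as Gbp2b, Plac8 and Saa3, passed in all 7.

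The shares read in DKO minus Dnmt2-/- MEFs, computed under alternatives added after seeing the data, also depended on the setting. The share of lower genes that were 2-fold or more in the opposite direction was 0% without background correction and with the authors' values, 3.23% at an offset of 50 and 3.45% with the mean over detected probes. The share of higher genes that were 2-fold or more in the same direction was 6.67% with the authors' values and 5.36% at an offset of 50. The share of lower genes that were 2-fold or more in the same direction was 15.6% under median scaling. List medians ranged over settings from 0.48 to 0.82 for MHC class I, 0.50 to 1.29 for acute-phase genes and −0.64 to −0.25 for ATF4 targets. For Nsun2 loss in MEFs and for its difference from liver, limma called 0 genes under every alternative run, with a lowest adjusted p of 0.119, for Nsun2 loss under median scaling. The cause of these shifts was not tested. Dim probes, such as those of Nsun2, allow bounds only.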
